A study of Rattus norvegicus with 8 samples.

Results

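Gja1 encodes connexin 43, a gap junction protein, and is described here from its single row (ENSRNOG00000000805) among the 32285 Ensembl gene identifiers of an RNA sequencing table from the sinoatrial node of the rat. The row was taken by its identifier and not by a threshold on its values, though the gene was chosen when earlier results of these data were known. The table gives no gene names, and none of the reference genes carried an Ensembl identifier, so the name rests on the identifier as supplied and could not be checked against an annotation. The 4 HFpEF libraries, a model of heart failure in which the ejection fraction is preserved, came from Dahl salt-sensitive rats (SS/JrHsdMcwiCrl) that ate chow with 8% NaCl for 11 weeks. The 4 Control libraries came from rats of the same strain on chow with 0.4% NaCl for the same time. Dahl salt-sensitive rats become hypertensive on salt-rich chow. As both groups carry this background and no group ate the salt-rich chow without the disease model, salt intake, hypertension and heart failure cannot be told apart. The labels give no age or sex. They do not state whether the libraries are from separate animals, and the p-values below therefore reflect only library-to-library spread, part of which may be technical.

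Gap junction channels let ions pass directly from one cell to the next and so carry the electrical impulse between heart muscle cells. Each cell contributes a ring of connexin proteins in its membrane, and rings of neighbouring cells dock to form the channel. Connexin 43 is the main connexin of working atrial and ventricular muscle. It is scarce in the centre of the sinoatrial node, where connexins of lower conductance predominate, and more plentiful toward the surrounding atrial muscle. Fibroblasts, smooth muscle and endothelial cells can also make it. A dissected node holds all of these cells, and in such bulk tissue more cells of a type and more RNA per cell cannot be told apart. Because other identifiers could not be named, markers of node, atrial muscle and other cells were not examined, and the dissected tissue was not checked against them.

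Gja1 had high read counts in all 8 libraries. Its expected counts were 27209, 12599, 14046 and 16416 in HFpEF replicates 1 to 4, and 15117, 14387, 17453 and 26146 in Control replicates 1 to 4, each rounded to a whole number. Counting error alone would give a coefficient of variation of 0.606% to 0.891% for counts of this size, while the counts varied by 37.7% among the HFpEF libraries and 29.6% among the Control libraries. Library totals ran from 31774820 to 38889395, a far narrower range than that of Gja1.

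Scaled for library size, Gja1 stood at 746, 398, 425 and 449 normalised counts per 1000000 (CPM) in HFpEF replicates 1 to 4. It stood at 409, 386, 457 and 728 normalised CPM in Control replicates 1 to 4. Its mean over the 8 libraries, 500 normalised CPM, ranked 135 among 16313 tested genes, whose median was 12.2 normalised CPM. This rank is by read count, with no correction for gene length. In each group 1 library was high and 3 were close together, and the groups overlapped throughout their range. The high libraries were HFpEF replicate 1 and Control replicate 4. The lower of them was 1.59-fold above the highest of the other 6 libraries, which lay between 386 and 457 normalised CPM. These libraries are set apart here only by their Gja1 level, and nothing in the labels distinguishes them from the others of their group.

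**Figure D1:**
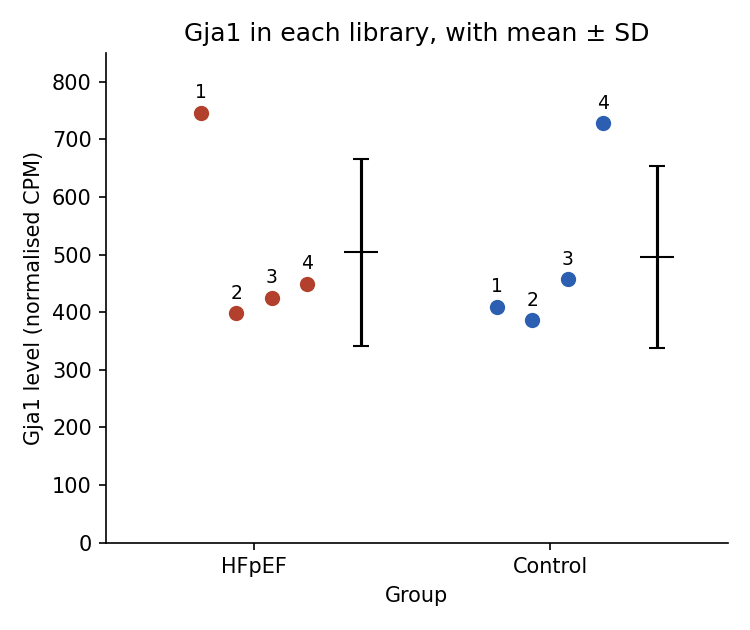
Gja1 level in normalised CPM (vertical axis) in the HFpEF and Control libraries (horizontal axis). Points are single libraries with their replicate numbers, and the bars show the mean ± SD of 4 libraries. HFpEF replicate 1 and Control replicate 4 lie at 746 and 728 normalised CPM, and the other 6 libraries lie between 386 and 457.

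The study asks how the transcriptome of the node differs between HFpEF and Control animals. Gja1 averaged 504 ± 162 normalised CPM in HFpEF and 495 ± 158 normalised CPM in Control (SD, n = 4 each). The medians were 437 and 433 normalised CPM in HFpEF and Control. HFpEF over Control, the log2 fold change was 0.03 with a standard error of 0.25 (edgeR quasi-likelihood test, adjusted p = 0.967, unadjusted p = 0.917). Gja1 was thus not called, a difference being called at an adjusted p under 0.05. An exact two-sided permutation test of the log2 level over the 70 assignments of libraries to groups gave a difference of 0.03 and p = 0.829 (n = 4 each), where 0.0286 is the smallest p that 4 against 4 allows.

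The 95% interval of the fold ran from 0.685 to 1.51 in HFpEF relative to Control, or -0.55 to 0.60 on the log2 scale. The interval is not adjusted for the number of genes tested, and the result does not show that the groups had the same level. Across the table, 316 of 16313 tested genes were called in either direction (1.94%), 251 of them higher (1.54%) and 65 lower (0.398%) in HFpEF. That background depended on the libraries and the tool: DESeq2 called 856 genes higher and 392 lower, and edgeR called 22, 89, 24 and 157 genes without Control replicates 1 to 4 and 332, 186, 157 and 245 without HFpEF replicates 1 to 4. Of the tested genes, 94.9% had a smaller p than Gja1 and 11.9% had a smaller absolute log2 fold change. The median log2 fold change of all tested genes was -0.00409 and their median absolute log2 fold change was 0.13.

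**Figure D2:**
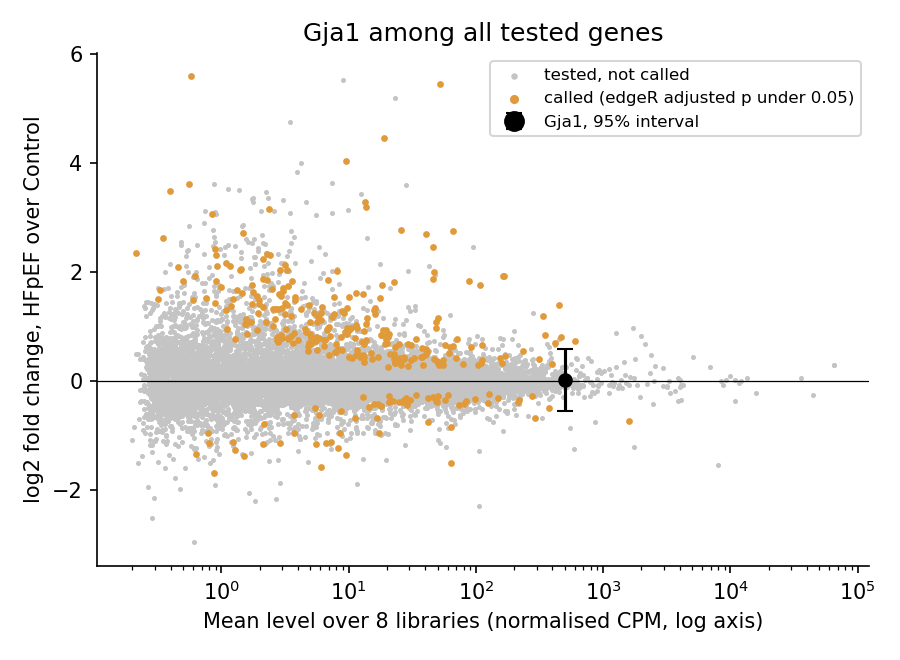
Log2 fold change of HFpEF over Control (vertical axis) against the mean level in normalised CPM over 8 libraries (horizontal log axis) for the 16313 tested genes, with the 316 called genes in orange. Gja1, in black with its 95% interval of -0.55 to 0.60, has a log2 fold change of 0.03, close to the line at 0.

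Leaving out 1 library at a time moved the Gja1 difference to either side of 0 without bringing it past the threshold. Without HFpEF replicate 1 the log2 fold change was -0.22 (edgeR adjusted p = 0.59), and without Control replicate 4 it was 0.27 (edgeR adjusted p = 0.536). It was also below 0 without Control replicate 1 (-0.06), Control replicate 2 (-0.08) or Control replicate 3 (-0.01). With both HFpEF replicate 1 and Control replicate 4 left out, a choice made after their values were seen, the log2 fold change was 0.02, its standard error was 0.09 and it was not called (edgeR adjusted p = 0.913). The 95% interval then ran from -0.19 to 0.23. It is narrower because the libraries with the largest deviations were removed by choice, so it understates the spread of Gja1 between libraries.

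**Figure D3:**
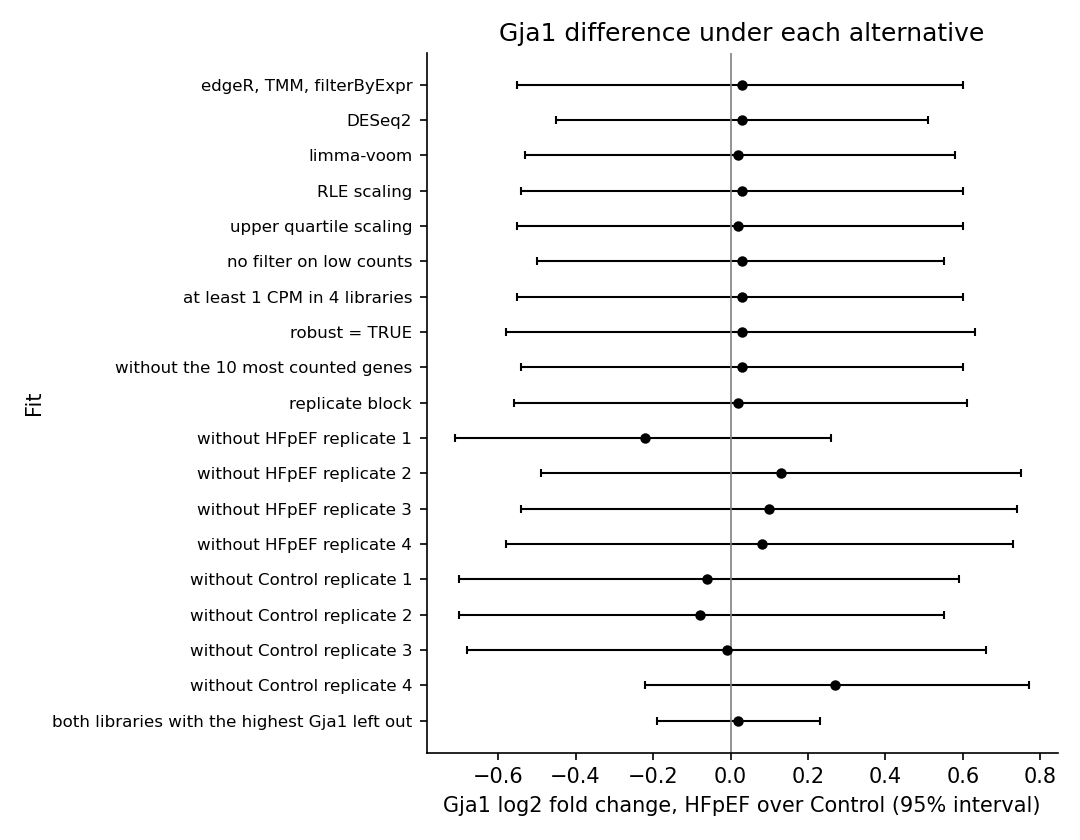
Gja1 log2 fold change of HFpEF over Control (horizontal axis) in the main fit at the top and under each of 18 alternatives (vertical axis), with points for the estimates and bars for 95% intervals. Every interval includes 0. The estimates run from -0.22 without HFpEF replicate 1 to 0.27 without Control replicate 4.

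The spread of Gja1 within groups was large for its read count. On the log2 CPM scale the SD was 0.41 in both HFpEF and Control, and 0.41 when pooled. In each group 1 library held most of this spread. HFpEF replicate 1 stood at 9.54 and Control replicate 4 at 9.51, against 8.59 to 8.84 in the other libraries. Among the 500 tested genes with the most similar read counts (188 to 1320 normalised CPM), the median pooled SD was 0.12, with quartiles of 0.08 and 0.17. Of these 500 genes, 486 (97.2%) varied less within groups than Gja1. None of the other 14, which varied at least as much, had HFpEF replicate 1 and Control replicate 4 as its highest libraries. That pair was highest in 5.24% of all 16313 tested genes (855), and 14 genes are too few to tell apart from that share.

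**Figure D4:**
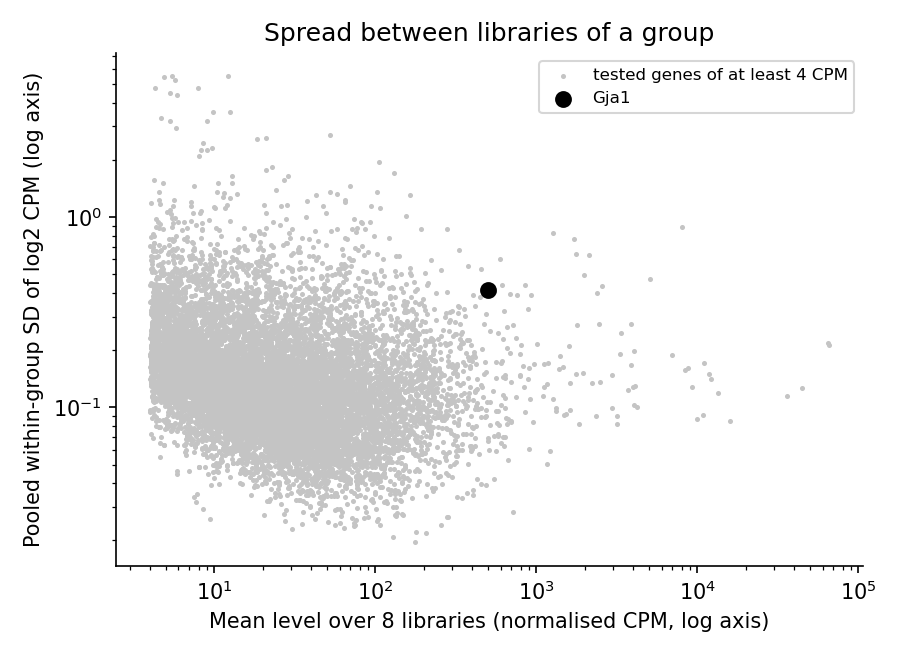
Pooled within-group SD of log2 CPM (vertical log axis) against the mean level in normalised CPM over 8 libraries (horizontal log axis) for tested genes averaging at least 4 CPM. Gja1, in black at an SD of 0.41, lies above most genes of similar read count, whose median SD was 0.12.

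Some measures of whole libraries stood at the same end of their group in both libraries with high Gja1, though by little in HFpEF replicate 1. Genes with a count numbered 20192 in HFpEF replicate 1, against 20242 to 20558 in the other HFpEF libraries, and 20178 in Control replicate 4, against 20545 to 21235 in the other Control libraries. The 10 most counted genes took 30.5% of counts in HFpEF replicate 1, against 27.2% to 30.4% in the other HFpEF libraries. They took 29.5% in Control replicate 4, against 27.0% to 28.8% in the other Control libraries. These libraries were not alike in every respect. The total count was the highest of its group in HFpEF replicate 1 (37180059) but not in Control replicate 4 (36504423). Their scaling factors, 0.981 in HFpEF replicate 1 and 0.985 in Control replicate 4, lay within the range of the other libraries of their group. The root mean square distance of log2 CPM from the group mean was 0.351 in HFpEF replicate 1, the lowest of the HFpEF libraries, and 0.384 in Control replicate 4, the highest of the Control libraries. The part of these measures in the Gja1 levels was not tested.

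Some other genes were also highest in HFpEF replicate 1 and Control replicate 4. Among the 11667 tested genes averaging at least 4 CPM, 720 (6.17%), Gja1 included, had these as their highest pair. In 522 genes (4.47%) the same libraries were the lowest pair. A gap to the remaining 6 libraries as wide as in Gja1, 0.67 on the log2 scale, was found in 3 other genes. Both the pair of libraries and the width were taken from Gja1, and no other pair was counted. Neither these shares nor the number of genes with such a gap therefore shows how rare the pattern is.

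The likeness of other genes to Gja1 was measured by the root mean square difference between their log2 CPM in the 8 libraries, each gene being centred on its own mean. Of 11666 genes compared, ENSRNOG00000004377 was nearest at 0.098, and ENSRNOG00000045811 followed at 0.114, against a median of 0.38. That median is no typical likeness, as a gene at the same level in all libraries would lie at 0.36. Of the genes compared, 36.1% were nearer to Gja1 than such a flat gene. The reference used here carried no Ensembl identifiers for any gene. ENSRNOG00000004377 and ENSRNOG00000045811 could therefore not be named and are given by their values alone. ENSRNOG00000004377 stood at 92.3, 51.2, 56.1 and 53.6 normalised CPM in HFpEF replicates 1 to 4, and at 60.7, 53.7, 62.0 and 104 normalised CPM in Control replicates 1 to 4. ENSRNOG00000045811 stood at 35.1, 18.1, 20.2 and 18.8 normalised CPM in HFpEF replicates 1 to 4, and at 17.8, 19.8, 24.6 and 32.1 normalised CPM in Control replicates 1 to 4. In both genes, as in Gja1, HFpEF replicate 1 and Control replicate 4 were the highest libraries and the groups overlapped. The gap to the remaining libraries was narrower in both genes than in Gja1. Neither was called, with log2 fold changes of -0.15 for ENSRNOG00000004377 (edgeR adjusted p = 0.795) and -0.03 for ENSRNOG00000045811 (edgeR adjusted p = 0.959). Both genes were chosen for their likeness to Gja1, so their pattern adds no independent support to it.

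**Figure D5:**
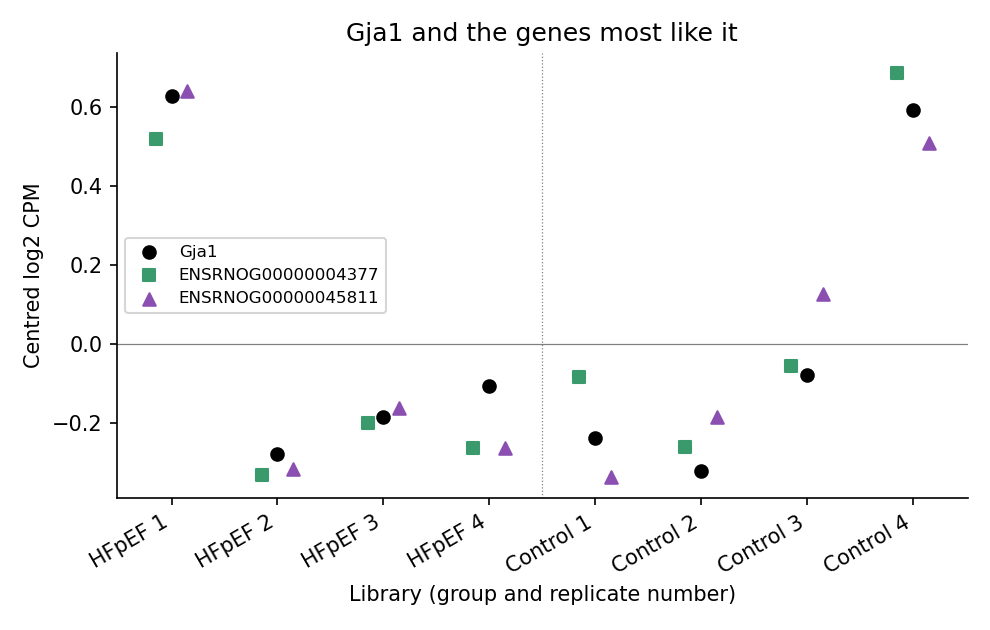
Centred log2 CPM, that is, each gene's log2 CPM minus its own mean over 8 libraries (vertical axis), in the HFpEF libraries and then the Control libraries (horizontal axis) for Gja1 (circles), ENSRNOG00000004377 (squares) and ENSRNOG00000045811 (triangles). Gja1 lies at 0.63 in HFpEF replicate 1 and 0.59 in Control replicate 4 and below 0 in the other 6 libraries, and the other genes are also highest in those 2 libraries.

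The expected count of Gja1 was not whole in any of the 8 libraries, which RSEM, the program behind the deposited counts, gives where it divides reads between genes. The same held for 22.8% of tested genes (3721). The table does not give how many Gja1 reads were divided or with which gene, so the level of Gja1 carries that uncertainty in both groups.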

How the data were processed

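Libraries were built from total RNA of the dissected node after removal of ribosomal RNA, per the labels' protocols. The authors deposited expected counts per gene, not normalized, in 1 table. The submitters' processing notes name Bowtie2 2.1.0, RSEM 1.2.15 and rn6. The strand setting, read filters and annotation release were not given in the sources consulted. RSEM divides a read that matches several genes between them, which leaves fractional values (a value within 0.005 of an integer was taken as whole).

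Expected counts were rounded. Genes were kept with filterByExpr (16313 genes), scaled by TMM and tested with edgeR 4.0.16 (R 4.3.3) by the quasi-likelihood test on all 8 libraries, two-sided, with Benjamini-Hochberg adjustment over all tested genes. Standard errors and 95% intervals were derived from the F statistic. Log2 CPM used a prior count of 0.5. The edgeR fit was tested on counts simulated from its own fitted dispersions, and the permutation test on a made-up case of separated groups. The measures of spread, likeness and outliers were not tested in this way. Pairs of libraries within a group differed beyond counting noise (chi-square over its degrees of freedom between 18.3 and 82.5), so none was counted as a copy of another; this does not show that they are from separate animals. Precision came from the spread between libraries, as counting error was under 1% for Gja1. Alternatives used DESeq2 1.42.0, limma-voom (limma 3.58.1), other scalings and filters, the replicate number as a block, and libraries left out.

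Named were Gja1 and the 2 genes of at least 4 mean CPM most like it. Gja1, the rules and the gene lists were chosen with earlier results of these data known. The lists (connexins, partners, cell type markers and others) were not run, because 0 of 47357 reference genes carried an Ensembl identifier. Coordinates of the other build were not used.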

Additional observations from a re-analysis of the deposited data

Results flagged for a closer look

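In 4 of 18 sets of 4 values, 1 library stood apart by Dixon's test at its 95% critical value, where chance gives about 1 in 20. The sets cover Gja1, the 2 genes most like it and library measures, and are not independent, since those genes were chosen for their likeness to Gja1. The 4 sets can therefore not be weighed against that rate. No set of library measures passed the critical value. Gja1 itself gave a ratio of 0.856 in HFpEF, for replicate 1 at 746 normalised CPM against 398 to 449 in the others. In Control, where replicate 4 stood at 728 normalised CPM against 386 to 457, the ratio was 0.793, below the critical value. Before scaling, the expected counts of Gja1 gave 0.739 in both HFpEF and Control, below it too. ENSRNOG00000004377 gave 0.881 in HFpEF and 0.834 in Control, for the same libraries. ENSRNOG00000045811 gave 0.88 in HFpEF, and 0.524 in Control, below the critical value.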

How the results depend on the processing

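Gja1 passed the threshold in none of the 18 alternatives (adjusted p of 0.536 to 0.992), and its 95% intervals lay within -0.71 and 0.77 on the log2 scale. Leaving out 1 library gave log2 fold changes of -0.22 to 0.27, below 0 in 4 cases, and permutation differences of -0.18 to 0.23, so the sign of the difference rests on single libraries. The other alternatives gave 0.02 to 0.03. Without 1 library, ENSRNOG00000004377 ran from -0.38 to 0.11 and ENSRNOG00000045811 from -0.31 to 0.15. The 316 called genes became 1248 with DESeq2, 6 with the replicate block, 197 without both libraries highest in Gja1, and 22 to 332 without 1 library. DESeq2 called 856 higher and 392 lower, edgeR 21 and 1 without Control replicate 1, 24 and 0 without Control replicate 3 (2522 genes with an unadjusted p under 0.05), and 6 and 0 with the block (2568 such genes). Apart from DESeq2, these fits had fewer libraries or degrees of freedom. Why the numbers changed was not tested for any of these fits. Under the replicate block the Gja1 log2 fold change was 0.02 (edgeR adjusted p = 0.97). Across genes, the deviations from the group means of libraries sharing a number had r = 0.044, -0.127, -0.010 and -0.190, and the highest r of a library was with its own number in 0 of 8. As the deviations within a group sum to 0, a weak tie between libraries sharing a number might not show in r. With no clear tie seen, the block was not read as a pairing. Counting error for Gja1 was under 1% in each library, far below its spread between libraries.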
